A study of Caenorhabditis elegans with 2 samples.

Results

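The fatty acid desaturases and elongases described here are 9 genes of Caenorhabditis elegans (fat-1 to fat-7, elo-1 and elo-2), chosen by name as rows of the deposited expression tables, out of 41560 gene names. Peaks belonged to a gene where they overlapped its locus by at least 1 base, which gave 92 of the 105255 peaks listed for CAR-1(dSm) and 69 of the 77986 listed for CAR-1(FL). The data are from seCLIP-seq, a single-end form of crosslinking and immunoprecipitation that sequences the RNA recovered with a protein. That protein was CAR-1, a worm relative of LSM14 proteins that binds RNA and sits in processing bodies and P granules. 1 library came from strain CZ26430, labelled CAR-1(dSm), and 1 from strain CZ25180, labelled CAR-1(FL); both were pulled down with GFP-trap, a single-domain antibody against GFP on beads. The sources used here do not say what dSm stands for, nor do they give the age and stage of the animals, the tissue, the promoter of the tagged gene or any further allele.

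The worm makes its polyunsaturated fatty acids itself, in a chain of steps that alternate between desaturases, which put a double bond into a fatty acid, and elongases, which lengthen it by a pair of carbons. FAT-5, FAT-6 and FAT-7 put in the first double bond, FAT-2 turns oleic acid into linoleic acid, FAT-1 makes the omega-3 series, and FAT-3, ELO-1 and FAT-4 lead on to the long, highly unsaturated members. ELO-2 lengthens palmitic acid at the start of the chain. These enzymes are known from the intestine and the epidermis, where most of the worm's lipid is made and stored.

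Each group had 1 library. No spread between cultures could be measured, no test was run, and every difference below describes these libraries only. No unbound or size-matched input was used here. A level of recovered RNA therefore mixes the amount of an RNA in the lysate with the efficiency of its pull-down, and fewer cells of a type cannot be told apart from less RNA per cell. The car-1 gene itself, which encodes the targeted protein, stood at an FPKM (a fragment count scaled by transcript length and library size) of 94.3 in CAR-1(dSm), with deposited bounds of 86.9 to 102, and of 45.2 in CAR-1(FL), with bounds of 38.8 to 51.6. By the peak lists' own scaling, CAR-1(dSm) was 1.36 times as deep.

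The peaks of fat-1 and fat-2, neighbours on chromosome IV whose enzymes act in succession, were nearly all higher in CAR-1(dSm). Medians of the log2 fold, CAR-1(dSm) over CAR-1(FL), were 0.89 for fat-1 and 0.57 for fat-2. On the deposited scale the FPKM of fat-1 and fat-2 were 1.01-fold and 1.22-fold CAR-1(dSm) over CAR-1(FL), values that moved with the scaling. The other desaturases and both elongases had peaks in both directions or only a few reads. In the per-library tables the FPKM bounds of no member lay apart between the libraries.

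By FPKM, fat-2 led all members. Its FPKM was 80.7 in CAR-1(dSm), with deposited bounds of 56.8 to 104.6, and 66.3 in CAR-1(FL), with bounds of 39.3 to 93.4. That placed it at rank 43 and rank 55 of 19355 protein-coding genes. Its bounds lay above those of the next member, fat-3, in both libraries, and no other neighbours in the order of levels had bounds apart in either one. The order was fat-2, fat-3, fat-1, elo-1, fat-4, fat-6, elo-2 and fat-5 in CAR-1(dSm), and the same in CAR-1(FL) except that elo-1 stood above fat-1. The gene fat-7 was listed at 0 in both. These levels are uncertain, because the deposited bounds of all 8 members above 0 correspond to fewer fragments over the whole gene than the reads of their best covered peak, in both libraries. For fat-2 they correspond to 45.7 fragments in CAR-1(dSm), against 24.02 in CAR-1(FL), while single peaks held up to 229 and 105 reads. The FPKM of fat-2 was 11.7 times that of fat-1 in CAR-1(dSm), although the fat-1 bounds correspond to 57.3 fragments and the median over peaks with read numbers was 95.5 reads for fat-2 and 72 for fat-1. Of the 9 members, 6 reached an FPKM of 1 in either library; fat-5, fat-7 and elo-2 did not.

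**Figure D1:**
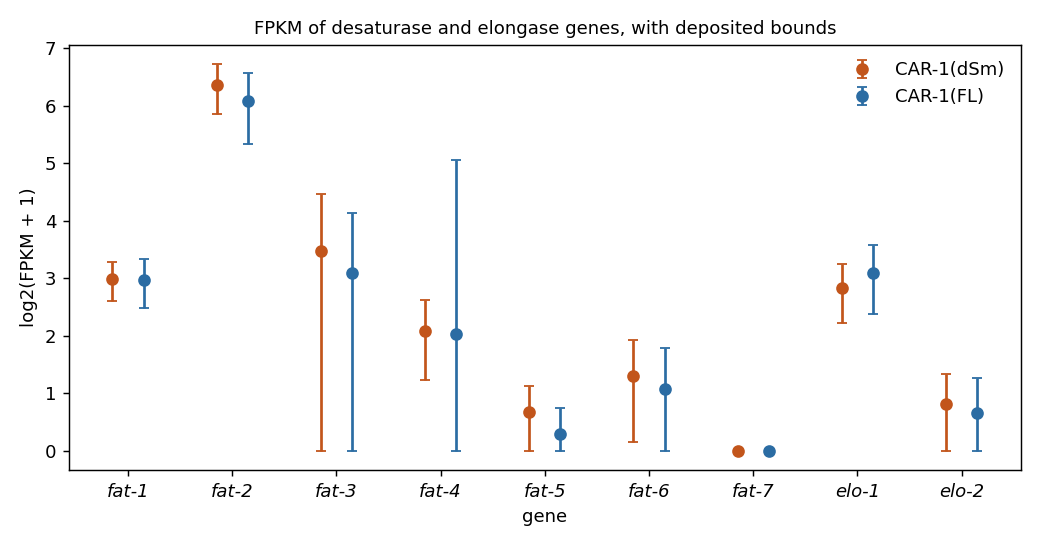
FPKM of each gene as log2(FPKM + 1) in CAR-1(dSm) and CAR-1(FL), 1 library each; bars are the deposited lower and upper bounds, which cover counting and read assignment within a library. The bounds of both libraries overlap for every gene above 0, fat-2 is highest in both libraries, and fat-7 is listed at 0.

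Differences are given as log2(FPKM + 1) in CAR-1(dSm) minus CAR-1(FL), a scale that understates low genes. Of the 6 members that reached an FPKM of 1, 0 were at least 1 unit apart, where 29.5% of the 4361 genes that reached it were. The deposited bounds lay apart for 0 members, against 4.84% of those genes. The median over the 6 members was 0.14 and the median over all 4361 genes was −0.07. These 6 are not all members, and 5 of them were above 0, where 45.5% of all genes were. Among those above 0, fat-1 stood at only 0.02. For fat-3 and fat-4 the sign is uncertain, as the authors' deposited comparison gave −0.46 and −1.64.

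The first double bond is put in by FAT-5, FAT-6 and FAT-7, and the genes of FAT-5 and FAT-7 were thinly covered. The gene fat-6 (IV: 11913795 to 11915645, ce10), which encodes the main stearic acid desaturase with FAT-7, had an FPKM of 1.45 in CAR-1(dSm), against 1.104 in CAR-1(FL), with bounds of 0.116 to 2.78 and 0 to 2.47. Its 18 listed peaks lay in both directions, with a median log2 fold of 0.15 and 11 of them higher in CAR-1(dSm). The CAR-1(dSm) peak of highest −log10 p (IV: 11914665 to 11914710) held 34 reads in CAR-1(dSm), against 16 in CAR-1(FL). Its counterpart among the CAR-1(FL) peaks (IV: 11915044 to 11915127) held 46 and 40. These −log10 p values and folds are the authors', and read numbers were recovered from them. A peak with as many reads per unit of depth in both libraries would have 57.6% of its reads in CAR-1(dSm); the first of these had 68.0% there (exact binomial 95% interval 53.3 to 80.5) and the second 53.5% (42.4 to 64.3). Both intervals take in that share. Such intervals cover counting error only, and do not allow for a peak having been picked for its −log10 p.

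The gene fat-7 (V: 7151427 to 7153112), whose protein is a close relative of FAT-6, held 2 peaks, both in the CAR-1(dSm) list, and none in the other. The better covered (V: 7151649 to 7151674) held 3 reads in CAR-1(dSm), against 1 in CAR-1(FL), where a number of 1 can stand for none. An FPKM listed at 0 beside listed peaks can be a failed estimate, so no fold is given. The sources used here do not say how reads that match both fat-6 and fat-7 were placed, so levels of both genes are uncertain.

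The palmitic acid desaturase gene fat-5 (V: 17724978 to 17726691) stood at 0.590 in CAR-1(dSm), against 0.226 in CAR-1(FL), with both lower bounds at 0. It too had 2 peaks in the CAR-1(dSm) list and none in the CAR-1(FL) list, with 10 reads against 3 (V: 17726328 to 17726474; 76.9% in CAR-1(dSm), interval 46.2 to 94.96) and 7 reads against 2 (V: 17725250 to 17725333). The numbers of both genes on chromosome V were too small to tell the libraries apart. The fat-5 locus also lies partly inside that of T21H3.9, which spans 169046 bases.

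The gene elo-2 (IV: 17466227 to 17467362), for the elongase of palmitic acid, was nearly even between the libraries. Its FPKM was 0.759 in CAR-1(dSm), against 0.582 in CAR-1(FL), with upper bounds of 1.52 and 1.41 and lower bounds of 0. Each list held 9 peaks, and all 9 of each were overlapped by a peak of the other list on the same strand. Their median log2 fold was 0.04 over both lists, 11 of 18 were higher in CAR-1(dSm), and the range was −0.73 to 0.63. The peak with the highest −log10 p (IV: 17466471 to 17466508) held 42 reads in CAR-1(dSm), against 20 in CAR-1(FL), and the CAR-1(FL) list's own best (IV: 17466882 to 17466939) held 33 and 32. Among its peaks, 1 (IV: 17466701 to 17466796) held 57 reads in CAR-1(dSm), against 36 in CAR-1(FL), while the deposited bounds correspond to 3.996 fragments in CAR-1(dSm), against 1.99 in CAR-1(FL) over the whole gene.

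The gene fat-2 (IV: 13323855 to 13326254) encodes the enzyme that opens the polyunsaturated branch. All 27 of its listed peaks, 14 in the CAR-1(dSm) list and 13 in the CAR-1(FL) list, were higher in CAR-1(dSm), with log2 folds from 0.14 to 1.18, where 61.4% of all listed peaks were. By list that share was 70.1% for CAR-1(dSm), with a median log2 fold of 0.36, and 49.75% for CAR-1(FL), with a median of −0.0076. Among the 2598 genes with at least 20 listed peaks, 4.27% had every peak higher in CAR-1(dSm). The peaks of both lists are largely the same sites, since 13 of the 14 and 11 of the 13 were overlapped by a peak of the other list, so they are not separate observations. The strongest peak (IV: 13326039 to 13326111) lay near the 3′ end and held 229 reads in CAR-1(dSm), against 81 in CAR-1(FL). With 73.9% of its reads in CAR-1(dSm), it had an interval (68.6 to 78.7) above the 57.6% of an even peak. This peak was picked as the most extreme of 27, for which the interval does not allow. The peak just before it (IV: 13326021 to 13326038) held 126 and 43 reads, and the one before that (IV: 13325975 to 13326020) held 135 and 57. These 3 peaks touch each other and may share reads. With the locus divided into 3 parts of equal length, the 15 peaks of the 5′ part had a median log2 fold of 0.57, the 3 of the middle part 0.27 and the 9 of the 3′ part 0.80. No fat-2 peak in the CAR-1(FL) list had a −log10 p above 0. This adds nothing to their direction, because member peaks lower in their own library all carry a −log10 p of 0.

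The gene fat-1 (IV: 13315621 to 13318582), for the omega-3 desaturase, ends 5273 bases before the start of the fat-2 locus, and no gene locus of the tables lies between them. Of its 26 listed peaks, 25 were higher in CAR-1(dSm), where 7.74% of the genes with at least 20 listed peaks had at least 95% of them higher in that library. The exception was 1 of the 15 peaks in the CAR-1(dSm) list, at a log2 fold of −0.05. The strongest peak lay at the 5′ end (IV: 13315650 to 13315711) and held 130 reads in CAR-1(dSm), against 36 in CAR-1(FL), with 78.3% in CAR-1(dSm) (interval 71.3 to 84.3). The next strongest (IV: 13316049 to 13316109) held 72 and 18 reads, and the one after that (IV: 13315958 to 13316017) held 114 and 40. The intervals of all of these lie above the even share of 57.6%. These peaks were picked for the highest −log10 p of the gene, for which the intervals do not allow. Along fat-1 the order of the parts differed from fat-2: the median log2 fold was 1.41 over 7 peaks in the 5′ part, 0.98 over 8 in the middle part and 0.72 over 11 in the 3′ part. Of the fat-1 peaks in the CAR-1(dSm) list 14 of 15 were overlapped by the other list, so again the lists share sites.

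**Figure D2:**
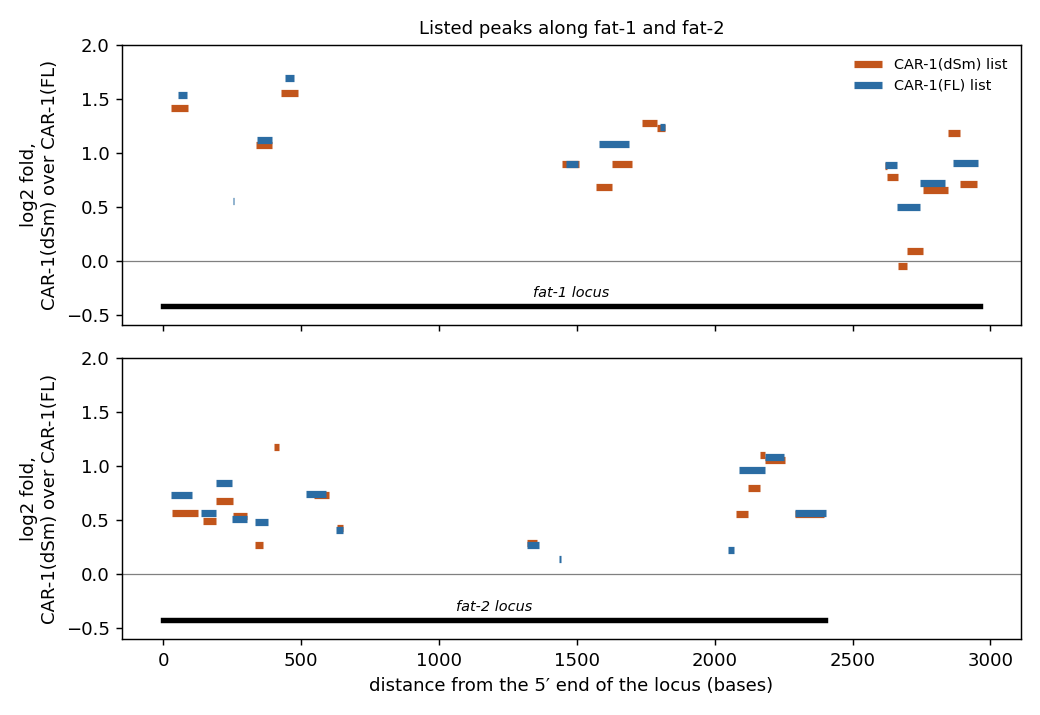
Listed peaks of fat-1 (top) and fat-2 (bottom), drawn to scale by distance from the 5′ end of the locus in bases, against the deposited log2 fold turned to CAR-1(dSm) over CAR-1(FL); each bar is 1 peak and its colour gives the list. All fat-2 peaks and 25 of the 26 fat-1 peaks lie above 0, with the highest median of fat-1 in its 5′ part and the lowest median of fat-2 in its middle part.

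By FPKM the difference of the same pair depended on the scaling. On the log2(FPKM + 1) scale it was 0.02 for fat-1 and 0.28 for fat-2 as deposited, and 0.39 and 0.70 when ribosomal RNA genes were left out, where the median of all genes moved to 0.30. The gene fat-1 stood at 6.90 in CAR-1(dSm), with bounds of 5.08 to 8.73, and 6.82 in CAR-1(FL), with bounds of 4.60 to 9.04. The bounds overlapped widely, as they did for fat-2. The fat-1 bounds correspond to 57.3 fragments in CAR-1(dSm), against 37.6 in CAR-1(FL) over the whole gene, fewer than the 130 reads of its strongest peak in CAR-1(dSm) and the 58 reads of another peak (IV: 13318376 to 13318467) in CAR-1(FL). The FPKM and the peaks of fat-1 thus differ on the deposited scale, and the cause was not tested. Among the 9604 genes with at least 4 listed peaks, the median peak fold of fat-1 lay at percentile 90.7 and that of fat-2 at percentile 82.5.

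**Figure D3:**
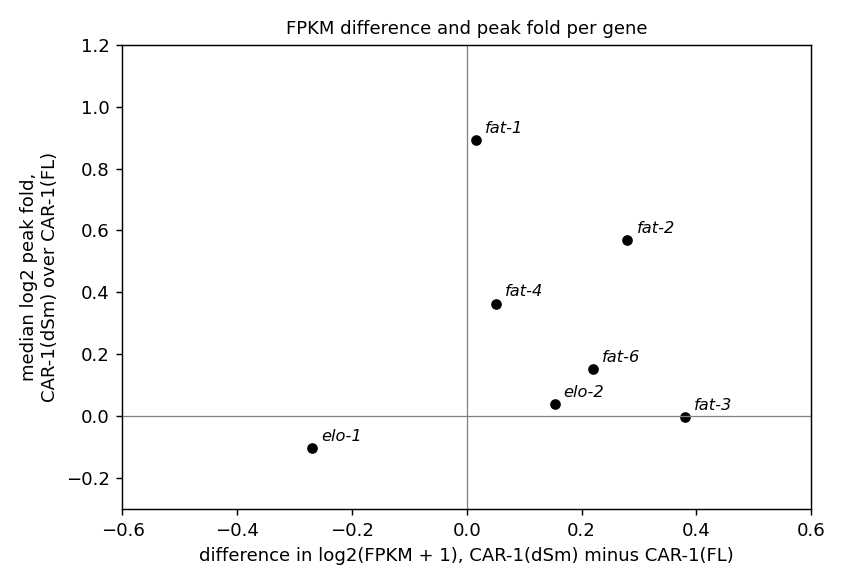
Difference in log2(FPKM + 1), CAR-1(dSm) minus CAR-1(FL), on the horizontal axis, against the median log2 peak fold, CAR-1(dSm) over CAR-1(FL), on the vertical axis; each point is 1 of the 7 genes with at least 4 listed peaks. The gene fat-1 has the highest peak fold, 0.89, at an FPKM difference of 0.02 as deposited (0.39 without ribosomal RNA genes), and elo-1 is the gene with both values below 0, its FPKM difference turning to 0.11 when ribosomal RNA genes were left out of the scaling.

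The genes fat-3 and fat-4 lie 990 bases apart on the same strand and encode the desaturases that act before and after ELO-1. The FPKM of fat-3 (IV: 9803042 to 9805979) was 10.1 in CAR-1(dSm), against 7.56 in CAR-1(FL), with upper bounds of 21.2 and 16.6 and lower bounds of 0. Its 29 peaks were split, with 14 higher in CAR-1(dSm) and a median log2 fold of −0.0032. The 4 peaks of its 5′ part were all higher in CAR-1(FL), with a median log2 fold of −0.76, and the 18 of its 3′ part had a median of 0.12. Those 4 peaks are 2 sites listed in both lists. At each site the CAR-1(FL) peak has read numbers, with 46.0% (31.8 to 60.7) and 45.2% (29.8 to 61.3) of the reads in CAR-1(dSm), and both intervals take in the even share of 57.6%. The peak with the highest −log10 p (IV: 9804378 to 9804405) held 14 reads in CAR-1(dSm), against 3 in CAR-1(FL), and its counterpart in the CAR-1(FL) list (IV: 9805146 to 9805192) held 35 and 40. The first had 82.4% of its reads in CAR-1(dSm) (56.6 to 96.2), which takes in the even share. The second had 46.7% (35.1 to 58.6), which takes it in as well.

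The gene fat-4 (IV: 9799450 to 9802052) had an FPKM of 3.25 in CAR-1(dSm), with bounds of 1.34 to 5.16, and of 3.11 in CAR-1(FL), with bounds of 0 to 32.2. The width of the last interval leaves its level in CAR-1(FL) nearly unmeasured. In the authors' deposited table the values of the other 6 members above 0 were 5.25 times (CAR-1(dSm)) and 5.13 times (CAR-1(FL)) those of the per-library tables. Those of fat-4 were 5.25 and 17.8 times and those of fat-3 4.88 and 9.07 times, so the tables differ on these genes by more than scale. In the authors' deposited table fat-4 stood at 17.1 in CAR-1(dSm), against 55.2 in CAR-1(FL), a log2 fold of −1.69 (p-value 0.178, q-value 0.724). The same table gave fat-3 as 49.5 and 68.6, a log2 fold of −0.47 with a q-value of 0.967. For both genes this direction is opposite to that of the per-library tables, and the authors' test compares these libraries, not the conditions. Of the 24 peaks of fat-4, 17 (70.8%) were higher in CAR-1(dSm), near the 61.4% of all listed peaks, and the median of 0.36 lay inside the quartiles over all genes. Its peak with the highest −log10 p (IV: 9799575 to 9799579) held 22 reads in CAR-1(dSm), against 5 in CAR-1(FL), with 81.5% in CAR-1(dSm) (61.9 to 93.7). That interval lies above the even share, but the peak was picked as the most extreme of 24, for which the interval does not allow. In the CAR-1(FL) list that place was held by a peak with 14 and 19 reads (IV: 9800246 to 9800274).

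The gene elo-1 (IV: 9526369 to 9528146), for the elongase that lengthens the products of FAT-3, was the member with the largest share of peaks higher in CAR-1(FL). Its FPKM was 6.10 in CAR-1(dSm), with bounds of 3.69 to 8.50, and 7.55 in CAR-1(FL), with bounds of 4.23 to 10.9, a difference of −0.27 that changed sign when ribosomal RNA genes were left out of the scaling (0.11). Of its 15 peaks 4 were higher in CAR-1(dSm), and the median log2 fold was −0.10. The CAR-1(dSm) peak of highest −log10 p (IV: 9527019 to 9527024) held 19 reads in CAR-1(dSm), against 9 in CAR-1(FL). In the CAR-1(FL) list it was a peak with 84 and 78 reads (IV: 9527608 to 9527705), with 51.9% in CAR-1(dSm) (43.9 to 59.8). All elo-1 peaks had log2 folds between −0.34 and 0.63, and the libraries could not be told apart there at this depth.

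**Figure D4:**
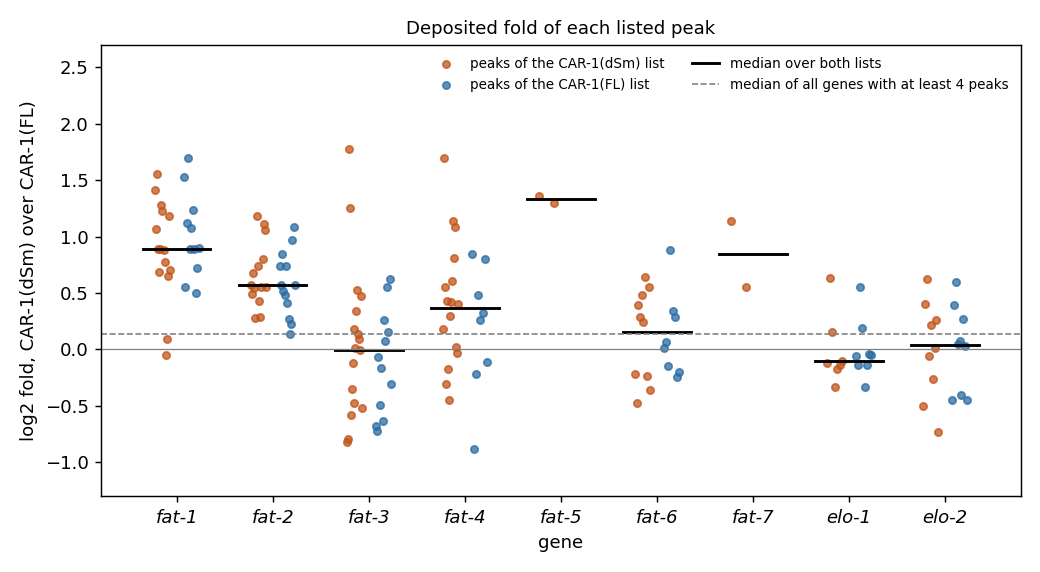
Deposited log2 fold of each listed peak, turned to CAR-1(dSm) over CAR-1(FL), for the 9 genes; points are peaks, black lines are medians over both lists, and the dashed line is the median of 0.14 over all genes with at least 4 listed peaks. The points of fat-1 and fat-2 lie above 0 with 1 exception, those of fat-3, fat-4, fat-6, elo-1 and elo-2 lie on both sides, and fat-5 and fat-7 have 2 peaks each.

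Over all members, 0 of 161 peaks reached 3 both in the authors' −log10 p and in the log2 fold, which 0.119% of all CAR-1(dSm) peaks and 0.0167% of all CAR-1(FL) peaks did. With the −log10 p alone, 8 of the 92 peaks in the CAR-1(dSm) list passed, 5 in fat-1 and 3 in fat-2, where 2.75% of that whole list did. The 3 of fat-2 are the touching peaks that may share reads, so these 8 are not separate observations. In the CAR-1(FL) list 0 of 69 passed, where 0.799% of that list did. By gene, 2 of 9 members held such a peak in the CAR-1(dSm) list, where 6.29% of all genes with a peak in that list did. These shares were not matched for reads or for the number of peaks per gene. In that list fat-1 held 15 peaks and fat-2 held 14, with up to 130 and 229 reads in CAR-1(dSm). With a log2 fold of 1 required as well, 6 of 92 and 0 of 69 passed, where 1.99% and 0.224% of the whole lists did. Of the 7 members with at least 4 listed peaks, 5 had a median above 0, near the 61.6% of all such genes. The median over those genes was 0.14, with quartiles of −0.16 and 0.45, so that fat-1 and fat-2 lay above the upper quartile and the other 5 inside both.

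The choice of members by name did not use the features below. Of the 9 genes, 7 lie on chromosome IV and 2 on V. All 161 peaks of the 9 loci lay on 1 strand per gene. For chromosome and strand no share over all genes was computed, so neither is read as a trait of these genes. Sites listed in one library were mostly listed in the other as well: 73.9% of the members' CAR-1(dSm) peaks were overlapped by a CAR-1(FL) peak on the same strand, where 53.5% of that whole list were. In the other direction the shares were 91.3% of the members' CAR-1(FL) peaks and 69.3% of that whole list. For the 7 genes with peaks in both lists, peaks covered 17.6% (fat-3) to 29.4% (fat-6) of the locus in CAR-1(dSm) and 15.6% (fat-3) to 30.4% (fat-2) in CAR-1(FL).

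The lists of genes that act around these enzymes had medians on both sides of that of all genes. Of 126 listed genes in 6 groups, 122 were in the tables and 42 reached an FPKM of 1. Of these, 5 lay beyond 1 unit towards CAR-1(dSm) and 3 towards CAR-1(FL), where 15.2% and 14.3% of all genes were. The bounds lay apart for 1 gene in each direction, where they did for 2.2% of all genes towards CAR-1(dSm) and 2.64% towards CAR-1(FL). The median over all 42 was −0.10, against −0.07 over all genes, and by list it ran from −0.40 to 0.31.

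The groups upstream of the chain held no gene with bounds apart. In fatty acid synthesis, with 4 measured genes and a median of −0.03, pod-2, the acetyl-CoA carboxylase gene, stood at 6.80 in CAR-1(dSm), against 6.42 in CAR-1(FL). Its peaks were higher in CAR-1(dSm) at 75 of 82, where 61.4% of all listed peaks were. Over the whole group as listed, 156 of 224 were (69.6%), and pod-2 held the most peaks. The shares of the others were 44 of 66 for fasn-1, 16 of 24 for acly-2 and 7 of 10 for hpo-8. They were 8 of 18 for let-767, 3 of 14 for art-1 and 3 of 10 for mlcd-1. The other elongases had 1 measured gene, elo-3, at 2.02 and 1.43, with 17 of 18 peaks higher in CAR-1(dSm). Below an FPKM of 1, elo-5 and elo-6, which serve the branched-chain fatty acids, had 19 of 21 and 13 of 21 peaks higher there, and elo-4 and elo-9 had 0 of 3 and 3 of 5. In sum 52 of 68 peaks of the other elongases (76.5%) were higher in CAR-1(dSm). Regulators of desaturase genes had a median of −0.40 over 5. Among them nhr-49, a nuclear receptor that controls fat-7, stood at 0.861 in CAR-1(dSm), against 2.97 in CAR-1(FL) with overlapping bounds of 0.116 to 1.61 and 1.26 to 4.68, while 13 of its 16 peaks were higher in CAR-1(dSm). The S-adenosylmethionine synthetase gene sams-1 stood at 8.63 and 9.48, and the coactivator gene cbp-1 at 4.62 and 4.42.

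Downstream, the fatty acid binding and breakdown genes held both genes with bounds apart, in opposite directions. The median over 18 measured genes was 0.28, with 5 beyond 1 unit towards CAR-1(dSm) and 1 towards CAR-1(FL), and 3 of the 5 were listed at 0 in CAR-1(FL). The lipase gene lipl-5 stood 3.13-fold above CAR-1(FL) in CAR-1(dSm) (FPKM 5.60, bounds 3.93 to 7.27, against 1.79, bounds 0.525 to 3.05), and all 23 of its peaks were higher there. The acyl-CoA dehydrogenase gene acdh-1 stood at 6.10 in CAR-1(dSm), with an upper bound of 7.85, and 12.2 in CAR-1(FL), with a lower bound of 8.88, and 2 of its 45 peaks were higher in CAR-1(dSm). The lipid-binding protein gene lbp-9 led this group by level, at 30.7 in CAR-1(dSm), against 23.5 in CAR-1(FL). Acyl-CoA synthetases had a median of −0.20 over 4 genes, among them acs-2 at 1.14 and 2.51, and acs-19 at 4.48 and 4.18. Phospholipid and triglyceride synthesis had a median of −0.26 over 10, with the phosphocholine pathway gene pmt-2 at 3.71 and 5.04.

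**Figure D5:**
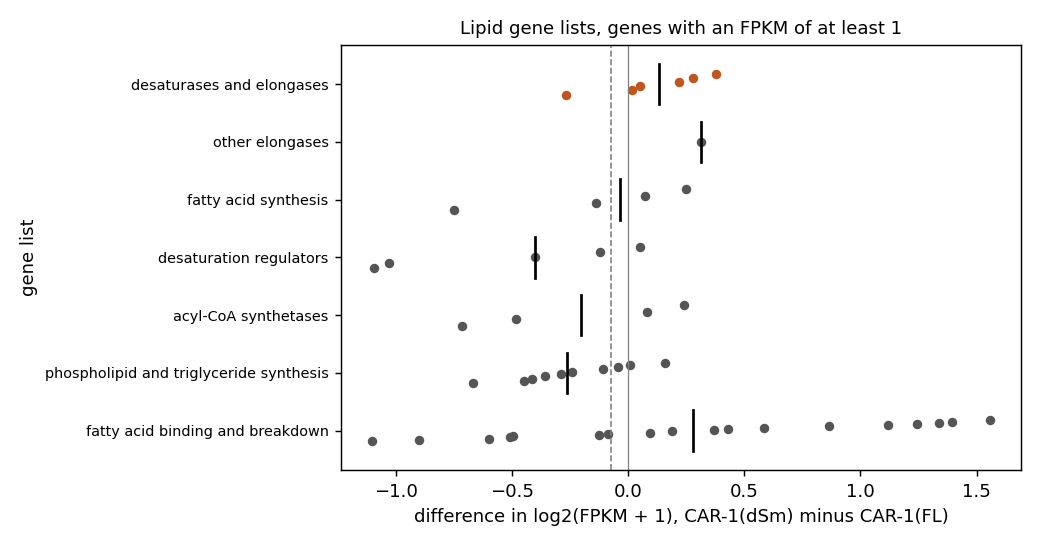
Difference in log2(FPKM + 1), CAR-1(dSm) minus CAR-1(FL), for genes that reached an FPKM of 1, 1 row per list; each point is a gene, the black line is the list's median and the dashed line the median of all genes, −0.07. The desaturases and elongases lie between −0.27 and 0.38, and fatty acid binding and breakdown genes spread from −1.101 to 1.56.

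On the deposited scale, markers of the tissues in which these enzymes are known had lower sums in CAR-1(dSm). The 14 intestinal markers summed to an FPKM of 303 in CAR-1(dSm), against 316 in CAR-1(FL), with ges-1 and elt-7 at 0 in CAR-1(dSm) and none at 0 in CAR-1(FL). Their main contributors, the yolk protein genes vit-2 and vit-6, stood at 138 and 124 and at 128 and 146. The other 12 summed to 36.4 in CAR-1(dSm), against 45.2 in CAR-1(FL), a ratio of 0.805, and the median difference over the 9 that reached an FPKM of 1 was −0.27, with 3 of 9 higher in CAR-1(dSm). The 12 epidermal markers summed to 73.3 and 101, with che-14 at 0 in both. For other tissues, 10 muscle markers summed to 64.6 and 80.5, with hlh-1 at 0 in CAR-1(dSm), and 11 germline markers to 43.9 and 53.4, with none at 0. The 12 neuronal markers summed to 20.4 and 6.88, a ratio of 2.97, with ric-4 and rgef-1 at 0 in both and unc-119, rab-3 and snb-1 at 0 in CAR-1(FL) alone. Scaling without ribosomal RNA genes shifts linear ratios by 0.43 in log2 towards CAR-1(dSm). The direction of the intestinal, muscle and germline sums therefore depends on the scaling. Among markers with at least 4 listed peaks, 9 of 12 intestinal and 1 of 11 epidermal ones had a median peak fold above 0. So did 1 of 10 muscle, 8 of 11 germline and 11 of 11 neuronal markers, and 61.6% of all such genes. The part of these shifts in the values of the members was not tested.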

How the data were processed

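The authors deposited, per library, an FPKM table with lower and upper bounds (Cufflinks columns, per the file headers) and a list of peaks. From its values, each peak carries the authors' −log10 p as its first score and, as its second, the authors' deposited log2 fold of its own library over the other one. Folds of the CAR-1(FL) list were turned in sign here. A table of the authors' comparison, per the file headers in the layout of Cuffdiff, gives an FPKM on another scale, a deposited log2 fold, a p-value and a q-value. The tools STAR, SAMtools, cutadapt and UMI-tools and the build ce10 are listed in the submitters' processing notes. The peak caller, annotation and treatment of reads with several matches were not given in the sources used here.

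For 508 names that had several rows, these were added up. Differences were log2(FPKM + 1), over genes that reached an FPKM of 1 in a library; bounds were compared only where both FPKM were above 0. The fragments behind an FPKM follow from its upper bound taken as 2 standard errors, so they cover counting and read assignment. A gene's peak fold is the median of its listed peaks, for loci of at most 100000 bases. Equal read numbers lie at a log2 fold of 0.44 in the CAR-1(FL) list, a depth ratio of 1.36. Read numbers of both libraries were found by trying whole numbers against fold and p (Fisher's exact test below 5 reads, otherwise a Yates-corrected chi-square; relative tolerance 0.003; no recovery below a −log10 p of 0.1). This gave 1 solution for 100% and 93.2% of 500 peaks drawn from the CAR-1(dSm) and CAR-1(FL) lists, and for 72 of the 72 member peaks tried. Intervals of shares are exact (Clopper-Pearson, 95%). No p-value was computed, since each group has 1 library. The code was tested on simulated data, with python 3.11.15, pandas 2.3.3, scipy 1.17.1 and bedtools 2.31.1.

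Members and gene lists were chosen with earlier results of these data known. Named genes were all members, car-1, and from each lipid list the 3 highest by mean FPKM and those with bounds apart, of which a selection is printed; a member's peak was named for the highest −log10 p in each list. Other peaks of fat-1, fat-2, fat-3, fat-5 and elo-2, and the genes fasn-1, let-767, art-1, mlcd-1, elo-4 and elo-9, were chosen after their values were seen. Protein-coding genes were taken by name from a RefSeq table of the assembly WBcel235, which was not used for coordinates.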

Additional observations from a re-analysis of the deposited data

How the results depend on the processing

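Of 131 values recomputed under alternatives, 114 stayed within a tolerance, or within 1.5 times for counts. The tolerance of a median was the spread over its genes or peaks, which is wider than an error: 0.67 for the lipid lists' median. That of a gene's FPKM difference came from its bounds, and that of an overlap share from its exact interval. Some alternatives could not move a value, such as the strand rule, or the FPKM filter for a gene that passes it. The count of 114 is therefore no measure of robustness. In the authors' comparison table, taken on its own higher scale, so that low genes weigh more, the difference of fat-3 was −0.46 and that of fat-4 −1.64, both opposite in sign to the per-library tables, so 1 member was at least 1 unit apart there, and the lipid list genes beyond 1 unit numbered 11 towards CAR-1(dSm) and 14 towards CAR-1(FL); the cause was not tested. Scaling without ribosomal RNA genes shifted linear FPKM ratios by 0.43 in log2 and the median of all genes to 0.30; elo-1 then stood at 0.11, opposite in sign, fat-1 at 0.39, fat-2 at 0.70, the members' median at 0.43 and the lipid lists' median at 0.28, and 0 lipid list genes lay beyond 1 unit towards CAR-1(FL). That lipid median, −0.10 as deposited, was 0.01 when scaled by the median ratio of all genes. Those lipid list counts also moved to 6 towards CAR-1(FL) at a pseudocount of 0.1, to 0 in each direction at a pseudocount of 5, and to 1 towards CAR-1(dSm) and 0 towards CAR-1(FL) with an FPKM of at least 5, where 8 genes were left. At a log2 fold of at least 1, 6 member peaks passed the thresholds, all in the CAR-1(dSm) list. With at least 50% of a peak required, 82.6% of the members' CAR-1(FL) peaks were overlapped. No fat-1 or fat-2 median peak fold changed sign or moved by more than its spread over peaks, with the median over all genes of 0.14 subtracted (an alternative chosen after seeing the data) among the settings. Medians near 0 changed sign within their spread: fat-3 was 0.05 over peaks with a −log10 p above 0 and 0.0088 in the CAR-1(dSm) list alone, and elo-2 −0.10 with that median subtracted. The strand of a gene was taken as that of most of its peaks, also chosen after seeing the data, because the planned reference table gives no strand. No paired analysis was possible because each group has 1 library. The FPKM of fat-3, fat-4, fat-5, fat-6 and elo-2 are uncertain, as their lower bound is 0 in at least 1 library. The parts of depth and of read assignment in these bounds were not tested.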
